A study of Rattus norvegicus with 2 samples.

Results

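The genes described here encode ion channels for sodium, calcium and chloride, with their auxiliary subunits, as read in RNA from cultures of rat oligodendrocyte precursor cells (OPCs). They were chosen by name alone, as the rows of the expression table whose symbols begin with the stems of voltage-gated sodium channels (Scn), voltage-gated calcium channels (Cacna and Cacnb), transient receptor potential channels (Trpc, Trpm and Trpv), Piezo channels, pacemaker channels (Hcn), acid-sensing channels (Asic), chloride channels and exchangers (Clcn), anoctamins (Ano), store-operated channels and their sensors (Orai and Stim), release channels of the endoplasmic reticulum (Ryr and Itpr), volume-regulated channels (Lrrc8) and Tmem63. Of the Itpr genes the rule takes Itpr1 and Itpr3 and leaves out Itpr2. It found 95 genes among the 17202 in the table. Of these, 2 are not channel subunits and matched by spelling alone: Trpc4ap, an adaptor of a ubiquitin ligase that was named for binding a Trpc channel, and Trpc5os, a gene on the opposite strand of Trpc5. The other 93 fall into 17 families.

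RNA was sequenced from primary wild-type rat OPCs grown from brain, in 1 library treated with amyloid-beta (Aβ), the peptide of Alzheimer's plaques, at 1 µM for 2 days and 1 library treated with the solvent DMSO. The treatment text is worded for Aβ in both samples, and no separate duration is given for DMSO. The labels call the animals developing in one place and the OPCs adult in another, and the sample titles begin with P1. The age is not settled by them. With 1 library per group there is no replicate, no difference has a replicate check and no p-value is given.

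OPCs are glial cells that carry voltage-gated channels and receive synapses from neurons, although they do not normally fire trains of action potentials. Sodium channels depolarize the cell, calcium channels and store-operated entry set the calcium level inside it, Piezo and Tmem63 proteins open when the membrane is stretched, and Clcn exchangers and Lrrc8 channels move chloride across endosomal and surface membranes. In the oligodendrocyte lineage, calcium entry and matrix stiffness are both known to bear on division and differentiation.

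The Aβ library held 15117102 estimated counts and the DMSO library 15019416. Markers of OPCs were abundant in both libraries, with Pdgfra, the receptor of the OPC mitogen, at 228 TPM (a length-scaled share of transcripts) in Aβ and 206 TPM in DMSO, and Olig2 at 216 and 209 TPM. By counts, 3 of the 5 OPC markers lay above 1 and 2 below, Olig1 (0.985) and Sox10 (0.995). The cultures also held transcripts typical of other brain cells. The 6 astrocyte markers summed to 1511.7 TPM in Aβ and 1442.1 TPM in DMSO, Gfap alone at 839 and 793 TPM; by counts 3 lay above 1 and 3 below, with Aldh1l1 at 0.883 (0.809 to 0.963). The 8 neuronal markers summed to 1086.5 and 1042.4 TPM, with 5 above 1 and 3 below by counts. Tubb3 and Stmn2 lay at 372 and 212 TPM in the Aβ library, and the more restricted Snap25 and Rbfox3 at 22.8 and 6.39 TPM. Microglial markers summed to 10.9 and 12.2 TPM. In a bulk library a change in the share of a cell type and a change in RNA per cell cannot be told apart, and which cells gave the channel reads was not tested.

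The channel transcripts of these cultures were dominated by intracellular chloride exchangers, volume-regulated channel subunits, anoctamins and store-operated entry, and less by voltage-gated pore subunits. TPM, deposited by the authors, is scaled to transcript length and lets levels be compared between genes. In the DMSO library the Clcn family summed to 211 TPM, or 23.1% of the 913 TPM of all 93 channel genes. The Lrrc8 family summed to 108 TPM, Ano to 100.1 TPM and Orai with Stim to 93.9 TPM. Sodium channel alpha subunits, the pore-forming chains, summed to 20.6 TPM, and the pore-forming calcium channel subunits to 37.9 TPM. The families with the lowest sums were Ryr with Itpr (4.71 TPM), Trpv (6.31 TPM) and Piezo (6.98 TPM). The sum of Ryr with Itpr lacks Itpr2, which the rule leaves out and which alone had 30.3 TPM in DMSO.

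Single channel genes ranged from listed at 0 to 66.8 TPM. Tmem63b, a stretch-activated cation channel, had the highest level of the 93 channel genes, with 66.8 TPM in Aβ and 65.0 TPM in DMSO. It was followed by the exchangers Clcn4 (58.7 and 54.7 TPM), Clcn6 (55.1 and 54.1 TPM) and Clcn3 (49.8 and 49.9 TPM). At least 10 TPM in a library was reached by 24 of the 93, and 30 of all 95 rows stayed under 1 TPM in both libraries. None of the 95 was listed at 0 in both libraries. The 5 listed at 0 in 1 library were Ano2, Cacna1f, Trpm5, Scn10a and Trpv5, and the other library held 1 or 2 counts of each, so no difference was detectable at this depth.

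**Figure D1:**
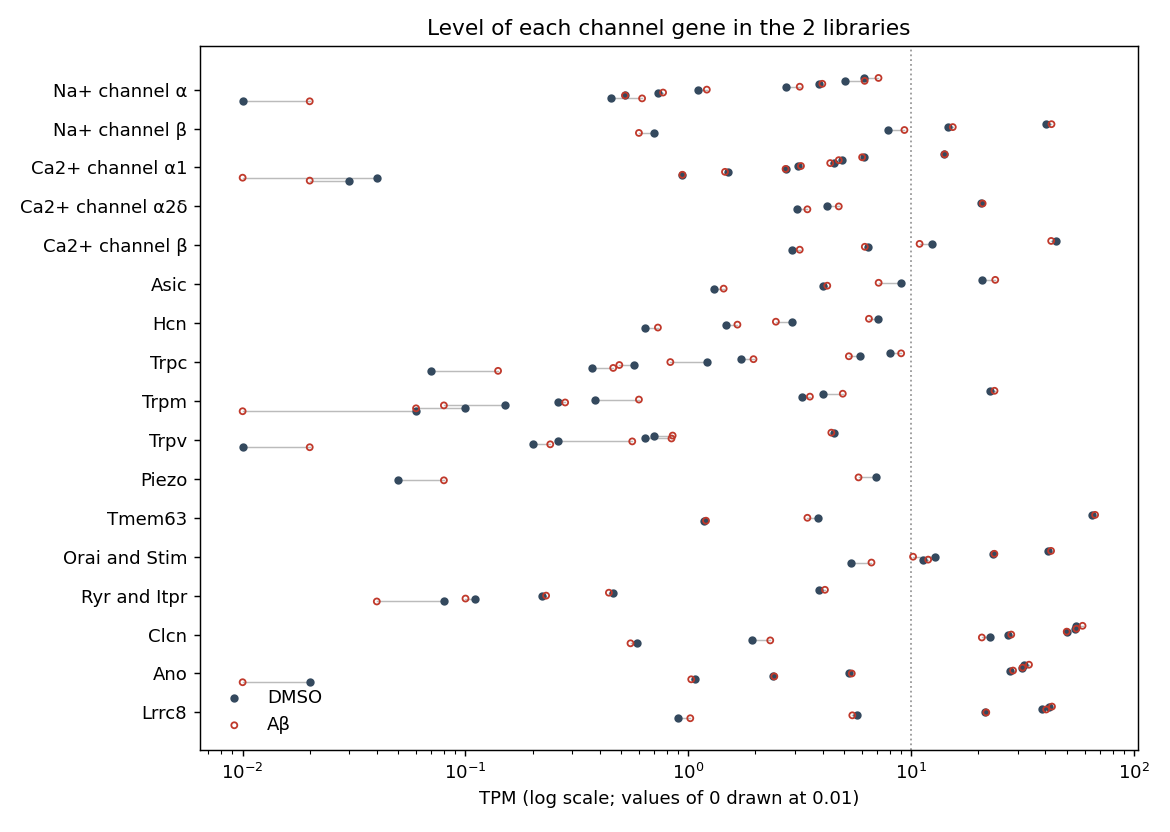
TPM of each of the 93 channel genes (points) by family on a log axis, with a filled point for the DMSO library and an open red point for the Aβ library, joined by a grey line; values of 0 are drawn at 0.01 and the dotted line marks 10 TPM. Above 10 TPM the points of both libraries lie close together, and the long grey lines belong to genes under 1 TPM.

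For the comparison, estimated counts were scaled to library size (CPM), and a gene had to reach 1 CPM in either library to count as measured. That held for 79 of the 95 genes, Trpc4ap among them; Trpm2 passed in the Aβ library alone, and the other 78 passed in both. Each ratio divides the Aβ value by the DMSO value, and its 95% interval covers only the error of counting. The measured genes divided evenly, with 40 ratios over 1 and 39 under it. The median log2 ratio of these genes was 0.00060, beside -0.00078 for all 13505 measured genes. With TPM in place of counts 51 lay above 1 and 25 below, and TPM moved the median log2 ratio of all measured genes to 0.037. The ratio lay within 1.2-fold for 71 of the 79 (89.9%) and for 86.9% of all measured genes.

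Few channel genes passed a rule of size, and no share was far above that of all genes. A 2-fold difference with an interval that left out 1 was met by 0 of the 79, beside 0.267% of all measured genes for higher and 0.407% for lower with Aβ. A 1.2-fold difference with such an interval was met by 0 higher (2.36% of all measured genes) and by 2 lower, Asic2 and Piezo1 (2.53% of the 79, beside 2.42% of all). With no minimum fold, the interval lay wholly above 1 for 3 genes, Asic1, Scn3a and Scn8a (3.80%, beside 6.49% of all measured genes), and wholly below 1 for 4, Asic2, Piezo1, Cacnb1 and Trpc4ap (5.06%, beside 6.88%). The count of channel genes past each rule was thus near or under the background. The interval lay within 1.5-fold on both sides for 57 of the 79 (72.2%, beside 80.1% of all measured genes), so a change of that size in those genes lay outside counting error.

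**Figure D2:**
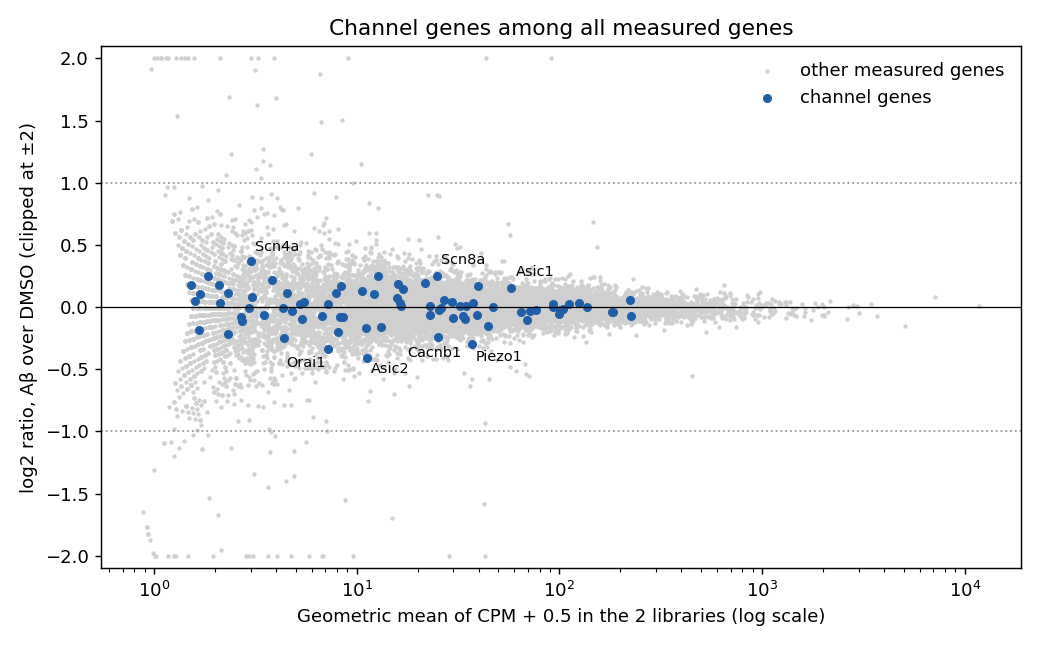
Each point is a measured gene, with the geometric mean of its CPM plus 0.5 in both libraries on a log axis and its log2 ratio (Aβ over DMSO) on the vertical axis, clipped at 2 in size; channel genes are blue and other genes grey, and dotted lines mark 2-fold. All 79 blue points lie between the dotted lines and inside the grey cloud, with Asic2, at -0.41, the lowest.

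Sodium channel alpha subunits, which form the pore that opens on depolarization, passed the 1.2-fold rule in 0 of 8 measured cases, and 2 of the 8 intervals left out 1. The ratio lay above 1 for 7 and below for 1; the split was 5 and 3 once the trend of the ratio with transcript length was removed. Scn8a, an alpha subunit of the nodes of Ranvier in mature axons, had 401 counts in Aβ and 334 in DMSO, a ratio of 1.19 (1.03 to 1.38). Scn3a, an alpha subunit that is abundant in the developing brain, had 632 and 556 counts and a ratio of 1.13 (1.004 to 1.27). It was the alpha subunit with the highest level, at 7.13 TPM in Aβ and 6.13 TPM in DMSO. Scn2a and Scn1a, the major alpha subunits of excitatory and inhibitory neurons, had 341 and 337 counts (ratio 1.00, 0.861 to 1.17) and 261 and 233 counts (1.11, 0.928 to 1.33). The intervals of Scn8a and Scn3a just left out 1, and those of Scn2a and Scn1a held it; with the length trend removed the interval of Scn3a held 1 too, at a log2 ratio of 0.13 in place of 0.17.

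The muscle subunit Scn4a had the highest ratio of all measured channel genes, 1.36, from 44 and 32 counts, and its interval of 0.846 to 2.22 held 1. Scn7a and Scn9a had ratios of 1.03 and 1.02 at 1.21 TPM or less. Scn1a, Scn2a, Scn3a and Scn9a all had fractional counts, which arise when reads are divided between similar transcripts. Summed, the 4 genes had 1307 counts in Aβ and 1198 in DMSO, a ratio of 1.08 (0.9998 to 1.17), an alternative chosen after seeing the data. All alpha subunits summed to 1874 and 1683 counts, a ratio of 1.10 (1.03 to 1.18). Neuronal markers, in which 5 of 8 were also above 1, had a median log2 ratio of 0.024 against 0.094 for the alpha subunits; their part in the result was not tested.

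The promoters of Scn3a and Scn8a are shown because these were the alpha subunits whose intervals left out 1 before any length correction. Both sequences come from RefSeq on build GRCr8, which is not the build of the counts, cover 250 bases before to 50 after the annotated start, and are written 5′ to 3′ along the gene. Capitals mark GGGCGG on either strand, the GC box bound by Sp-family factors.
Scn3a (chr3:70666149-70666448, - strand): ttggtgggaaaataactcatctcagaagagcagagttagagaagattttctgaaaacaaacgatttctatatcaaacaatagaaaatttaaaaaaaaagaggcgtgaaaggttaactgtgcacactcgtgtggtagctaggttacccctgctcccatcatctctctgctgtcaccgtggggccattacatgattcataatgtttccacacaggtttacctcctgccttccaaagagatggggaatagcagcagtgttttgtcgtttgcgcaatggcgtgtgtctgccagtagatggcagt
Scn8a (chr7:133860977-133861276, + strand): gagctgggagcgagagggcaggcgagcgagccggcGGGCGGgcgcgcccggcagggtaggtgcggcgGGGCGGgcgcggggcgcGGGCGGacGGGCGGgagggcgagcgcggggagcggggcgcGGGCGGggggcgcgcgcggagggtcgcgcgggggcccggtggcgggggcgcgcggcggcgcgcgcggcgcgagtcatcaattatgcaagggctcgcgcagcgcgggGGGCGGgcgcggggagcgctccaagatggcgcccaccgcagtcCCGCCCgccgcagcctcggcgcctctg
The Scn8a window held 7 matches, 84.7% G or C and 60 CpG, and the Scn3a window none, 43.3% G or C and 7 CpG. GGGCGG was present in 33.1% of the 33469 promoters in the RefSeq table and in 46 of the 95 windows (48.4%) that the table lists for 77 of the channel genes. These 95 windows had a median of 59.7% G or C and 11 CpG, beside 51.7% and 7 for all promoters. Motif shares were not adjusted for base composition. Whether promoter composition bears on the ratios was not tested.

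The beta subunits of sodium channels, which are adhesion molecules that tune gating and surface delivery, differed little. Scn3b stood at 15.4 TPM in Aβ and 14.6 TPM in DMSO, above every alpha subunit (ratio of counts 1.02, 0.908 to 1.15). Scn2b had 242 and 234 counts, a ratio of 1.03 (0.854 to 1.23). Scn4b, with 25 and 30 counts, had an interval of 0.466 to 1.45. The intervals of Scn3b, Scn2b and Scn4b all held 1.

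Acid-sensing channels, sodium channels opened by extracellular protons, held members on both sides of 1. Asic1, the main brain subunit, had 915 counts in Aβ and 816 in DMSO, a ratio of 1.11 (1.01 to 1.22). Asic2, which assembles with Asic1 and shifts its proton sensitivity, had 140 counts in Aβ and 187 in DMSO, a ratio of 0.743 (0.592 to 0.929), the lowest of all measured channel genes. Asic2 was also lower by TPM, at 7.14 against 8.96. Its DMSO count was fractional by a small margin (186.99). Asic1 made up 86.7% of the counts of the pair in Aβ and 81.4% in DMSO, and the ratio of the 2 ratios was 1.50 (1.17 to 1.92), a contrast chosen after the values were seen. Asic4 and Asic3 had ratios of 1.02 (0.768 to 1.36) and 1.07 (0.668 to 1.72). Over all 4 genes the summed counts were 1198 and 1140, a ratio of 1.04 (0.960 to 1.13).

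The promoters of the pair, again from RefSeq on GRCr8, are shown because Asic2 has separate annotated starts, whose transcripts encode different first parts of the protein. Capitals mark GGGCGG on either strand in the first 2 windows and TATAAA on either strand, where matches overlap, in the third. The Asic2 starts are numbered by chromosome coordinate, and on the - strand the second lies upstream of the first.
Asic1 (chr7:132678457-132678756, + strand): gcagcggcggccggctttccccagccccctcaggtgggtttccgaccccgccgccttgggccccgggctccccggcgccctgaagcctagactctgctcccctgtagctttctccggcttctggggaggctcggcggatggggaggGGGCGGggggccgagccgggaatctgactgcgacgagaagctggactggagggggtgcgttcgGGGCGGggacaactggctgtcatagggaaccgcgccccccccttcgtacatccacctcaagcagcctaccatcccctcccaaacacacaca
Asic2, first start (chr10:66636012-66636311, - strand): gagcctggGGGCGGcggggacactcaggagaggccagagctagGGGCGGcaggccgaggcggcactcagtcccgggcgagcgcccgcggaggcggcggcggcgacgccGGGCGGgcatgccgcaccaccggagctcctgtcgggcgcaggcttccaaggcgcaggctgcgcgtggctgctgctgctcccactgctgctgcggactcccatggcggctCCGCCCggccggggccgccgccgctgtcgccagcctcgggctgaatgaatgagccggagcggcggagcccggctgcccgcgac
Asic2, second start (chr10:67438188-67438487, - strand): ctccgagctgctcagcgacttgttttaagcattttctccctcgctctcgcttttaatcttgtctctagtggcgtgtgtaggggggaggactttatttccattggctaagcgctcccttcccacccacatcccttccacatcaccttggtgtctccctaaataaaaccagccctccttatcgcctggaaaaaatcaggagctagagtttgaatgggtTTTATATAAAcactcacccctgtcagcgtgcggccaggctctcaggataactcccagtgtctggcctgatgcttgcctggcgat
The Asic1 window held 2 GGGCGG matches and the first Asic2 window 4, with 69.7% and 78.0% G or C. The other Asic2 window held no GGGCGG, 51.0% G or C and 2 overlapping TATAAA matches. TATAAA was present in 14.2% of all promoters in the table and in 5 of the 95 windows of channel genes. Those windows were richer in G or C than all promoters, and these shares were not adjusted for it. The deposited values are per gene, so the share of each Asic2 start was not measured.

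**Figure D3:**
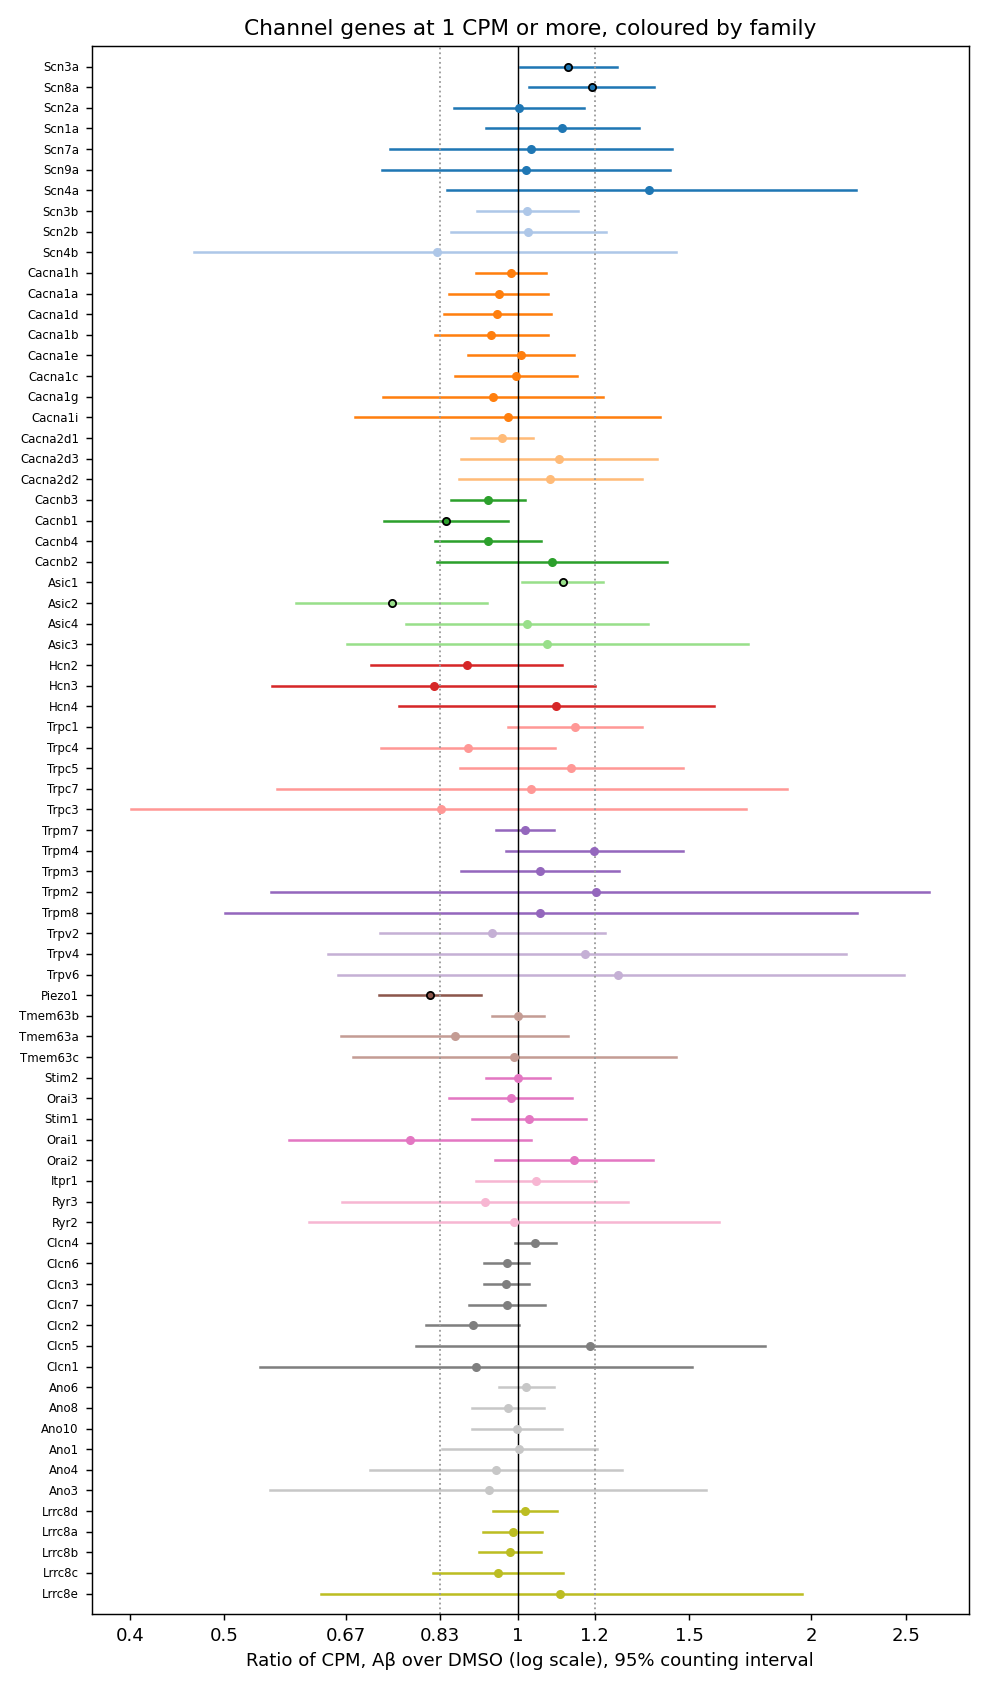
Ratio of CPM (Aβ over DMSO, log axis) with its 95% counting interval for 75 of the 78 measured channel subunits, one per row, coloured by family; black rims mark the genes whose interval leaves out 1, and dotted lines mark 1.2-fold. Of the rimmed points, Asic2 and Piezo1 lie below the lower dotted line and none lies above the upper one.

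Pore-forming subunits of voltage-gated calcium channels were at nearly the same level in both libraries. Of 8 measured, 7 lay below 1 and 1 above, with DESeq2 factors 6 and 2, by TPM 4 below, 2 above and 2 equal, and with the length trend removed 8 below. Cacna1h, a low-threshold (T-type) subunit, had the highest level, at 14.1 TPM in both libraries (ratio of counts 0.985, 0.907 to 1.07). Cacna1a and Cacna1b, the subunits of presynaptic P/Q-type and N-type channels, had 570 and 591 counts (0.957, 0.851 to 1.08) and 433 and 457 counts (0.940, 0.822 to 1.07). The L-type subunits Cacna1d and Cacna1c stood at 0.953 (0.840 to 1.08) and 0.997 (0.863 to 1.15). All 8 measured pore subunits had intervals that held 1 and lay within 1.5-fold. Summed, they and the 2 unmeasured ones, Cacna1s and Cacna1f, had 3715 and 3788 counts, a ratio of 0.973 (0.929 to 1.02). The retinal subunit Cacna1f and the skeletal muscle subunit Cacna1s had at most 2 counts in a library.

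Among the auxiliary calcium channel subunits, those of the beta class, which bind the pore inside the cell and carry it to the surface, had ratios below 1 in 3 of 4 cases, and the interval left out 1 for Cacnb1 alone. Cacnb1 had 344 counts in Aβ and 404 in DMSO, a ratio of 0.845 (0.729 to 0.978). Cacnb3, with the highest level of the class at 42.5 and 44.5 TPM, had a ratio of 0.932 (0.854 to 1.02), and Cacnb4 one of 0.933 (0.823 to 1.06). Cacnb2 lay above 1, at 1.08 (0.827 to 1.42). The summed beta class had 1953 and 2098 counts, a ratio of 0.923 (0.868 to 0.982). With TPM, whose offset over all measured genes was not removed, the interval of Cacnb1 no longer left out 1. Cacnb1 overlaps the ribosomal protein gene Rpl19 in the RefSeq annotation; Rpl19 had 13986 and 14535 counts (0.954, 0.932 to 0.977), and the sources used here do not say how reads in the overlap were assigned. Of the alpha2delta subunits, which raise surface density and bind gabapentin, Cacna2d1 had 20.9 and 20.7 TPM and a ratio of counts of 0.964 (0.897 to 1.04). Cacna2d3 and Cacna2d2 stood at 1.10 (0.874 to 1.39) and 1.08 (0.871 to 1.34).

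**Figure D4:**
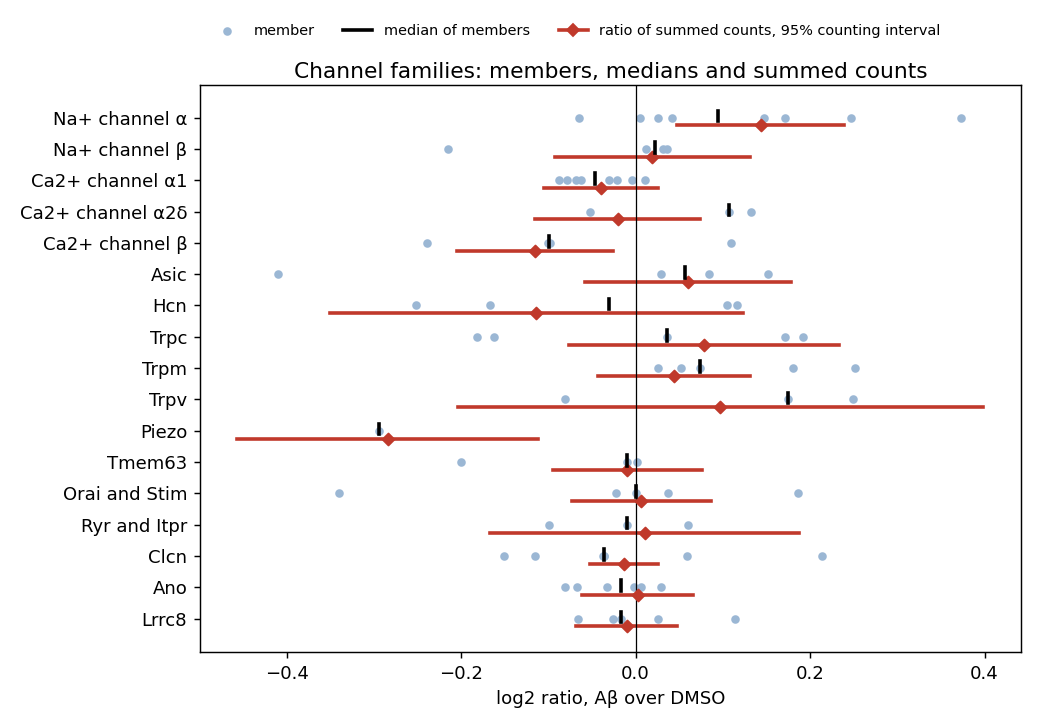
Log2 ratio (Aβ over DMSO) of the measured members of each family (pale points), their median (black bar) and the ratio of the family's summed counts with its 95% counting interval (red diamond and line). The red line leaves out 0 for sodium channel alpha subunits on the upper side and for calcium channel beta subunits and Piezo on the lower side, and holds 0 for the other 14 families.

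Hcn channels, which carry the pacemaker current, were low and had wide intervals. Hcn2 had 151 counts in Aβ and 169 in DMSO (ratio 0.886, 0.707 to 1.11), Hcn3 had 53 and 64 (0.821, 0.560 to 1.201) and Hcn4 had 64 and 58 (1.09, 0.755 to 1.59). A difference of 1.5-fold would have lain inside the intervals of Hcn3 and Hcn4.

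Of the TRP channels, a family of cation channels gated by lipids, temperature and calcium, Trpm7 led by level. Trpm7, a magnesium- and calcium-permeable channel fused to a kinase, had 1692 counts in Aβ and 1649 in DMSO, a ratio of 1.02 (0.950 to 1.09). Trpm4, a sodium-conducting channel opened by calcium inside the cell, had 203 and 168 counts and a ratio of 1.199 (0.972 to 1.48). Trpm3 stood at 1.05 (0.874 to 1.27). All 5 measured Trpm genes lay above 1 and none had an interval that left it out. Trpm2 was counted through the Aβ library alone, and with no filter on level 5 lay above and 3 below, the latter Trpm1 (4 and 11 counts), Trpm6 (6 and 10) and Trpm5 (0 and 2). With the length trend removed Trpm7 passed to the other side, at a log2 ratio of -0.0069.

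The Trpc channels open downstream of phospholipase C. Trpc1 had 343 counts in Aβ and 297 in DMSO, with fractional counts, a ratio of 1.15 (0.978 to 1.34). Trpc4 had 182 and 203 counts (0.889, 0.724 to 1.09) and Trpc5 had 127 and 111 (1.13, 0.873 to 1.48). Trpc1 and Trpc4 thus lay on opposite sides of 1, and the ratio of their ratios was 1.29 (0.992 to 1.67), a contrast chosen after the values were seen. Of the Trpv channels, Trpv2 had 114 and 120 counts (0.942, 0.723 to 1.23). Trpv4, which responds to osmotic swelling, had 26 and 22 counts, and Trpv6, a calcium-selective epithelial channel, 23 and 18. Both had ratios above 1, 1.17 and 1.27, with intervals from below 0.70 to above 2. Trpv1, the capsaicin receptor, was under 1 CPM with 15 and 7 counts (2.13, 0.816 to 6.16).

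Piezo1, the channel that opens when membranes are stretched and that is known to slow OPC division and differentiation on stiff matrix, was lower with Aβ. It had 497 counts in Aβ and 606 in DMSO, a ratio of 0.813 (0.721 to 0.917), and 5.80 against 6.93 TPM. The ratio by TPM was 0.837, which no longer reached 1.2-fold, with an interval that still left out 1. By TPM the median log2 ratio of all measured genes lay at 0.037, and this offset was not removed. Piezo1 had whole counts and the largest log2 ratio in size, -0.29, of the 37 measured genes of the set, Trpc4ap included, with at least 300 counts in a library. Among all measured genes with at least 300 counts, 2.13% had a ratio past 1.2-fold, beside 1 of those 37 (2.70%). Piezo1 overlaps Ctu2, a tRNA-modifying enzyme gene, in the RefSeq annotation, and Ctu2 had 199 and 195 counts (1.01, 0.827 to 1.24). Piezo2, the channel of touch-sensing neurons, had 9 and 5 counts and was not measured.

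The other stretch-gated family, Tmem63, was nearly level for its main member. Tmem63b had 2065 and 2046 counts, a ratio of 1.00 (0.941 to 1.06), and Tmem63c had 58 counts in each library. Tmem63a, a channel known from a myelination disorder, had 107 and 123 counts (0.863, 0.660 to 1.13).

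Store-operated calcium entry couples Stim proteins, which sense calcium in the endoplasmic reticulum, to Orai pores in the surface membrane. Both sensors were at nearly the same level in the 2 libraries. Stim2, the sensor of small drops in store calcium, had 42.4 and 41.0 TPM and a ratio of counts of 1.00 (0.928 to 1.08), and Stim1 had 11.9 and 11.3 TPM and a ratio of 1.03 (0.897 to 1.17). Of the pores, Orai1, the classical pore, had 90 counts in Aβ and 115 in DMSO (0.776, 0.582 to 1.03), and Orai2 had 250 and 217 (1.14, 0.949 to 1.38). Orai3 had 377 and 380 counts (0.984, 0.851 to 1.14). The intervals of all 3 pores held 1. By TPM, whose offset over all measured genes was not removed, that of Orai2 left it out. Orai2 made up 73.5% of the counts of Orai1 and Orai2 in Aβ and 65.4% in DMSO, with a ratio of ratios of 1.47 (1.04 to 2.08), a contrast chosen after the values were seen. Contrasts of this kind were also made for Cacnb2 to Cacnb1, at 1.28 (0.942 to 1.75), and Scn8a to Scn2a, at 1.19 (0.957 to 1.47). Both of those intervals held 1, as did that of Trpc1 to Trpc4. The 3 pores summed to 717 and 712 counts, a ratio of 0.999 (0.899 to 1.11).

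Release channels of the endoplasmic reticulum were low among the genes matched by the rule. Itpr1, a receptor for inositol trisphosphate, had 407 and 387 counts (1.04, 0.905 to 1.202). The ryanodine receptors Ryr3 and Ryr2 had 71 and 76 counts and 37 counts in each library. The rule leaves out Itpr2, the receptor subtype of glia, which was more abundant: it had 34.1 TPM in Aβ and 30.3 TPM in DMSO, and 3751 and 3407 counts (1.09, 1.04 to 1.14).

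Chloride channels and exchangers were the most abundant family and nearly level. The endosomal exchangers Clcn4, Clcn6 and Clcn3 had 3440 and 3274, 2734 and 2782, and 2717 and 2767 counts in Aβ and DMSO. Their ratios were 1.04 (0.993 to 1.09), 0.975 (0.924 to 1.03) and 0.974 (0.923 to 1.03). Clcn7, the lysosomal exchanger, stood at 0.975 (0.891 to 1.07), and its obligate partner Ostm1 at 1.01 (0.885 to 1.15). Clcn2, a surface channel of glia whose loss causes vacuoles in white matter, had 632 and 697 counts with fractional values (0.899, 0.806 to 1.003). Its partners in glia, Hepacam and Mlc1, had ratios of 0.974 (0.927 to 1.02) and 1.02 (0.988 to 1.06). Clcn2 overlaps Fam131a in the RefSeq annotation, and Fam131a had 317 and 259 counts (1.21, 1.03 to 1.44). Clcn5 had 55 and 46 counts, a ratio of 1.19 with an interval of 0.787 to 1.79.

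Anoctamins include calcium-activated chloride channels and lipid scramblases. Ano6, a scramblase that exposes phosphatidylserine, had 33.8 TPM in Aβ and 32.2 TPM in DMSO, with a ratio of counts of 1.02 (0.957 to 1.09). Ano8 and Ano10, found at membrane contact sites, had ratios of 0.977 (0.897 to 1.06) and 0.999 (0.899 to 1.11). Ano1, the calcium-activated chloride channel, had 242 and 239 counts (1.00, 0.836 to 1.21). The intervals of the 6 measured anoctamins all held 1. Of the Lrrc8 subunits, Lrrc8a is required in every volume-regulated channel and the others set its substrates. Lrrc8a had 1568 and 1574 counts (0.988, 0.921 to 1.06), Lrrc8d had 1417 and 1381 (1.02, 0.944 to 1.10) and Lrrc8b had 1499 and 1514 (0.982, 0.914 to 1.06). The ratio of the summed counts of the family was 0.993 (0.954 to 1.03).

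The 2 rows that are not channel subunits were set apart. Trpc4ap, at 110 and 113 TPM, had 3311 and 3453 counts, a ratio of 0.951 (0.907 to 0.998); with DESeq2 factors its interval held 1. Trpc5os had 5 and 3 counts. Trpc5 and Trpc5os overlap, and without a stated use of strand their reads cannot be told apart. Trpc5 also overlaps LOC108349244, which had 490 and 427 counts (1.14, 0.998 to 1.30), and how reads in that overlap were assigned is not known.

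Beside the calls that differed between counts and TPM, 3 genes differed by over 1.1-fold in the counts behind each TPM. Such counts follow the mean length of the transcripts that the quantifier assigned, so their ratio between libraries, centred on all measured genes, shows where the assigned transcripts differed in length. It was past that size on the longer side for 1 of the 79 genes (1.27%, beside 1.01% of all measured genes) and on the shorter side for 2 (2.53%, beside 1.24%). Trpc7 had 25 counts in Aβ and 24 in DMSO but 0.83 and 1.21 TPM, so its assigned transcripts were 1.55-fold longer with Aβ. Trpm2, a channel opened by ADP-ribose and oxidative stress, had 17 and 14 counts with 0.60 and 0.38 TPM, a relative length of 0.783. Scn2b had 242 and 234 counts with 9.32 and 7.87 TPM, a relative length of 0.889. Trpc7 and Trpm2 rested on at most 25 counts in a library, and the deposited table gives no isoform values.

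**Figure D5:**
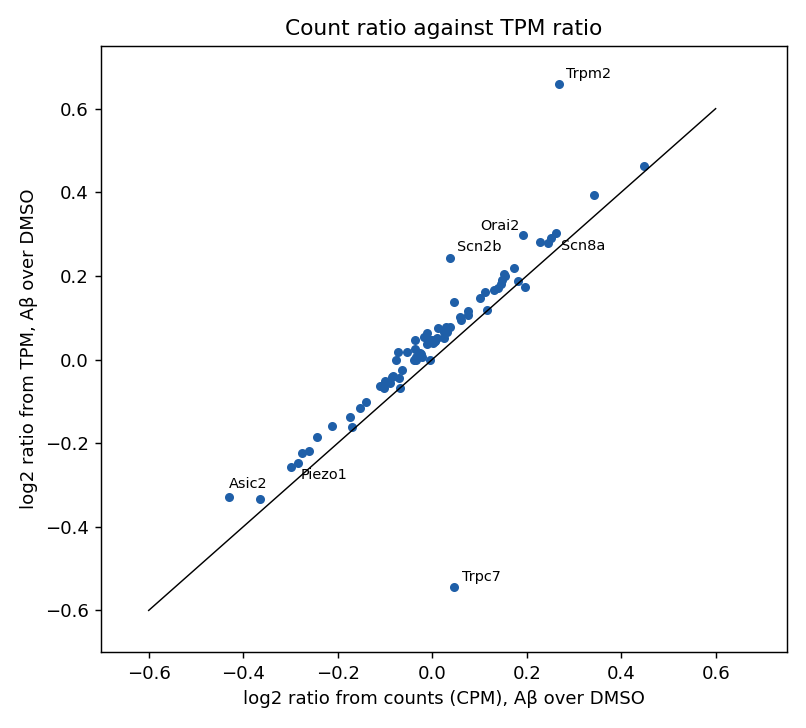
Log2 ratio from TPM against log2 ratio from counts (both Aβ over DMSO, no pseudocount) for the 78 measured channel subunits, with the line of equality. Most points lie along a line slightly above equality, and Trpm2 and Scn2b lie above it and Trpc7 below.

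Partners and relatives of these channels outside the rule were read from a list of 62 genes, of which 52 were in the table and 46 were measured. Ratios above 1 were found in 29 of the 46 and ratios below 1 in 17; the median of their log2 ratios was 0.028. The 1.2-fold rule was passed by 1 higher and 3 lower of the 46, beside 2.36% and 2.42% of all measured genes. Intervals lay wholly above 1 for 6 and wholly below for 4, beside 6.49% and 6.88%. As shares of the 46, all of these but the 1.2-fold higher call lay above the background, and each rests on few genes. The list was chosen with earlier results of these data known, so the shares are no independent evidence about such partners. The 1.2-fold higher call was Cacng8, an auxiliary subunit of AMPA receptors named for its likeness to a calcium channel subunit, with 113 and 79 counts (1.42, 1.05 to 1.92). The lower ones were its relative Cacng5 with 96 and 134 counts (0.711, 0.541 to 0.930), the lysosomal two-pore channel Tpcn2 with 231 and 275 (0.833, 0.696 to 0.996), and Stac, an adaptor of L-type calcium channels, with 12 and 26 (0.458, 0.210 to 0.940). Stac reached 1 CPM in the DMSO library alone, where it was higher, so the filter itself favoured a lower call. Cacng4, a subunit of the class of Cacng8 known from OPCs, had 64.2 and 54.1 TPM and a ratio of counts of 1.16 (1.01 to 1.34). Its relative Cacng7 had a higher level, 82.8 and 86.5 TPM, and a ratio of 0.947 (0.881 to 1.02). The sodium leak channel Nalcn had 585 and 535 counts (1.08, 0.963 to 1.22), and Saraf, which shuts off store-operated entry, 1527 and 1516 (0.999, 0.930 to 1.07). Ttyh1, a protein of glial processes related to volume-regulated anion currents, had 437 and 413 TPM and a ratio of counts of 1.03 (1.001 to 1.05).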

How the data were processed

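Bulk RNA sequencing of rat OPC cultures gave 1 library per treatment. Per the labels' protocols, mRNA libraries were made with a BGI kit; per the submitters' processing notes, Bowtie2 and build Rnor_6.0 were used. The Bowtie2 version, the quantifier, its annotation and the use of strand were not given in the sources used here. In the authors' deposited table each gene has estimated counts, TPM and FPKM. FPKM values, scaled by the authors to length and library size, were read but gave no result, since within a library they are proportional to TPM. A further deposited signal column of normalized counts equalled the estimated count rounded up over 1 constant per library and was not analysed.

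Estimated counts were rounded to whole numbers and scaled with TMM factors of edgeR 4.0.16 in R 4.3.3; DESeq2 1.42.0 size factors, total counts, deposited TPM, other pseudocounts and filters, whole counts alone and removal of the length trend by lowess were the alternatives. The log2 ratio used a pseudocount of 0.5 CPM and understates differences of low genes; the ratio itself had none. Intervals were exact 95% Clopper-Pearson intervals conditional on the summed counts (SciPy 1.17.1), and the code was tested on simulated data. Reads without molecular identifiers are not independent molecules. No test across genes could be made. A gene was called past a rule of size at 2-fold (on the log2 scale) or 1.2-fold with an interval leaving out 1.

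Members, lists and rules were chosen with earlier results of these data known. Genes named are the 3 with the highest TPM in each family, those at 10 TPM or more, those past a rule, the 6 furthest in each direction and 7 partners; others named (among them Scn7a, Scn9a, Trpc7, Trpm2, Trpv1, Asic3, Cacnb2, Orai2, Ano1, the partner genes past the 1.2-fold rule, Hepacam and the genes at 0) were picked after their values were seen. Values of some genes are not reported here. All 95 members matched the RefSeq gene table by identifier, and 18 overlap a gene of the expression table on GRCr8, Tmem63b, Clcn2 and Lrrc8a among them. How reads in any of these overlaps were assigned is not known.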

Additional observations from a re-analysis of the deposited data

How the results depend on the processing

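No paired analysis was possible because each group has 1 library. Under the alternatives tried, the log2 ratio of each measured gene named by the rule moved by no more than 0.5 of the width of its counting interval, and each family median by no more than the median of that distance over its measured members. The exception was the Piezo median, which was 0.050 with no filter on level, where Piezo2 enters with 9 and 5 counts. For single genes this stability was partly fixed in advance. The filters and the limit to whole counts keep or drop a gene and cannot move its own ratio. DESeq2 factors and total counts shift all genes nearly alike. Some other family medians changed sign within that distance. Trpc went from 0.036 to -0.112 with TPM, and Trpv from 0.174 to -0.081 with a filter of 5 CPM. Those of Clcn, Ano, Lrrc8, Tmem63 and Ryr with Itpr, below 0 by counts, lay above 0 with TPM. Under the 2-fold rule 0 channel genes were called in each alternative. Under the 1.2-fold rule, channel genes higher were 2 with TPM (Orai2 and Scn8a) and channel genes lower 1 with TPM (Asic2) and 1 with whole counts alone (Piezo1). TPM ratios were not centred, and their median log2 ratio over all measured genes was 0.037, beside -0.00078 with TMM factors. With no minimum fold, chosen after seeing the data, 3 members were higher and 4 lower, Trpc4ap among the lower, and 876 and 929 of all genes, beside 319 and 327 under the 1.2-fold rule. With whole counts alone, all genes past that rule were 198 higher and 194 lower. All genes past the 2-fold rule, 36 higher and 55 lower, were 8 and 16 with a pseudocount of 5 CPM, 16 and 23 with a filter of 5 CPM, and 2 and 10 with whole counts alone. The fitted length trend ran from -0.028 in the shortest decile of genes to 0.034 in the longest, and removing it moved the channel median to -0.015. Depth limits the 22 measured channel genes whose intervals reach past 1.5-fold.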
